A study of Saccharomyces cerevisiae with 32 samples.

Results

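The citric acid cycle oxidizes acetyl groups to carbon dioxide in the mitochondrial matrix and hands the electrons to the respiratory chain. In *Saccharomyces cerevisiae* growing on glucose most ATP comes from fermentation, and genes of the cycle are held down by glucose repression while the early steps still supply 2-oxoglutarate for glutamate synthesis. The Hap2/3/4/5 complex, which binds CCAAT elements, activates many of these genes in respiring cells, and the Rtg1-Rtg3 pair, which binds GTCAC elements, activates the early steps when respiration fails. Described here are 10 enzyme genes of the cycle, out of the 7036 genes of the count table. The 10 genes were picked by name, with earlier results of these data known. They are *CIT1* (YNR001C), *CIT2* (YCR005C) and *CIT3* (YPR001W), which encode citrate synthases, *ACO1* (YLR304C), which encodes aconitase, *IDH1* (YNL037C) and *IDH2* (YOR136W), the subunits of NAD-dependent isocitrate dehydrogenase, *KGD1* (YIL125W) and *KGD2* (YDR148C), components of 2-oxoglutarate dehydrogenase, *FUM1* (YPL262W), which encodes fumarase, and *MDH1* (YKL085W), which encodes mitochondrial malate dehydrogenase. Of these, 9 were among the 4625 genes that passed the filter on low counts and were tested, and *CIT3* did not pass.

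The study compared the strains *tma46Δ*, *eif2aΔ* and *stm1Δ* with wt by sequencing mRNA (RNA-Seq) and ribosome-protected mRNA fragments (Ribo-Seq, or footprints) from the same lysates, with 4 lysates for each strain and 32 libraries in all. All 4 strains are haploid BY4742, *MATα his3Δ1 leu2Δ0 lys2Δ0 ura3Δ0*, and each deletion is represented by 1 strain of the Yeast Gene Deletion Collection. *TMA46* encodes a ribosome-associated protein that partners the GTPase Rbg1, *YGR054W* encodes eIF2A, an initiation factor able to bind initiator tRNA, and *STM1* encodes a protein that clamps idle ribosomes. Cells grew exponentially at 30C and met cycloheximide, which stalls ribosomes, in the medium according to the labels and in the buffers according to the methods. The methods name the rich glucose medium YPD, whereas the sample labels name YPD or the minimal glucose medium SD without saying which library had which, so that a difference in medium between libraries cannot be told apart from the groups. Labels place the libraries in 7 batches: *tma46Δ* replicates 1 to 4 in batches 1, 2, 3 and 5, *eif2aΔ* in batches 3, 4, 5 and 6, *stm1Δ* replicate 1 in batch 6 and its other replicates in batch 7, and wt in batches 1, 2, 3 and 4. The model had a term for batch, so the comparison of *stm1Δ* with wt, which share no batch, ran through *stm1Δ* replicate 1 and the *eif2aΔ* library of batch 6. All comparisons shared the wt libraries. Nothing beyond the batch labels says whether replicates were separate cultures, so p-values measure the spread between these samples.

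RNA-Seq libraries held 4215500 to 6717295 counted reads, and Ribo-Seq libraries 1457024 to 4122370. *TMA46*, *YGR054W* and *STM1* had at most 23 reads in any library of their own deletion strain, against means of at least 172 CPM (counts scaled to a library of 1e6 reads) in wt. Reads of *LEU2*, *URA3* and *LYS2* were at most 3 per library, and alpha-cell genes were detected while a-cell genes were at most 8.93 CPM, which matches the labelled genotype. By these genes no library stood against its labelled strain. The molecule field of the labels calls some RNA-Seq libraries total RNA and some Ribo-Seq libraries polyA RNA. The assay was therefore taken from the library titles. The 10 genes each have a single coding exon that overlaps no other gene and shares no stretch of 28 bases with another place in the genome, and together they took 0.170 to 0.264% of the mRNA reads and 0.194 to 0.327% of the footprint reads. Levels below are normalized CPM, that is, CPM after scaling the library totals by trimmed mean of M-values (TMM). Among the 9 tested genes the lowest count was 358 mRNA reads and 176 footprint reads, each for *KGD1*. Because these are bulk lysates, a lower level does not separate fewer expressing cells from less mRNA per cell.

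CCAAT elements upstream of the 3 genes that were lower in *eif2aΔ* footprints (*ACO1*, *CIT1* and *KGD1*) and GTCAC elements upstream of *CIT2*, the classic target of Rtg1-Rtg3, are shown first, since the name of either regulator is tied to these genes. Capitals mark the element, and ATTGG and GTGAC are the same elements read on the other strand. Each line runs 5′ to 3′ on the strand of the gene, from the R64 genome sequence.
ACO1, 290 bases before the start codon, chrXII:737822-737850, minus strand: caaaggtcctgaCCAATcaatagagaaat
ACO1, 207 bases before the start codon, chrXII:737739-737767, minus strand: accatcaaacctCCAATcgctgccggttt
CIT1, 293 bases before the start codon, chrXIV:631338-631366, minus strand: tacttttgtgttATTGGaggatcgcaatc
KGD1, 318 bases before the start codon, chrIX:122359-122387, plus strand: tacacataaatgATTGGcaaagggactgc
KGD1, 251 bases before the start codon, chrIX:122426-122454, plus strand: cggtttagattcATTGGgtgtgtactatt
CIT2, 345 bases before the start codon, chrIII:122657-122685, minus strand: aggggcgaagagGTCACgacctatttttt
CIT2, 312 bases before the start codon, chrIII:122624-122652, minus strand: cagaaaaaaagtGTGACcttttccgtagc
CIT2, 196 bases before the start codon, chrIII:122508-122536, minus strand: cgtatgaaattgGTGACgttaatctaaag
CCAAT, searched on both strands of the 500 bases before the start codon, was present in 10 of 10 of these genes, and in 62.4% of 6006 upstream regions in the genome. GTCAC was present in 7 of 10, against 42.5% of all regions, and was not matched for *IDH2*, *KGD2* or *MDH1* in this window. In *CIT2* the GTGAC match 196 bases before the start codon overlaps its only ATTGG match. A match is a description of the letters and not a measured binding site, and elements this short are common.

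The bases around the start codon, where the initiator tRNA pairs, are shown with the start codon in capitals. They are given for the tested genes at the high and low ends of wt ribosome occupancy, which is described below.
KGD1, chrIX:122677-122703, plus strand: aattttaccgttATGctaaggttcgtg
ACO1, chrXII:737534-737560, minus strand: tatagatatacaATGctgtctgcacgt
CIT2, chrIII:122314-122340, minus strand: gtaacaagaaaaATGacagttccttat
CIT1, chrXIV:631047-631073, minus strand: ctatttacgaagATGtcagcgatatta
The base 3 before the start codon was A in 9 of the 10 genes, against 60.9% of 6008 genes. In *KGD1* it was G, the base found there in 19.3% of genes.

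In wt cells *IDH2* and *IDH1* were the most abundant of the 10 mRNAs for their length and *CIT3* the least. Per kilobase (kb) of coding sequence, the *IDH2* mRNA level was 444 ± 45.2 CPM per kb and that of *IDH1* was 322 ± 42.0 CPM per kb (SD, n = 4), and the wt libraries did not overlap between the pair. These levels placed *IDH2* above 91.5% and *IDH1* above 88.8% of tested genes. *FUM1* (209 ± 12.1 CPM per kb), *ACO1* (199.7 ± 55.1), *CIT1* (198 ± 26.1) and *MDH1* (177 ± 12.4) followed, with overlapping ranges of wt libraries among all 4 except *FUM1* and *MDH1*. *CIT2*, the peroxisomal citrate synthase, had 138 ± 10.7 CPM per kb, below every wt value of *MDH1*. The 2-oxoglutarate dehydrogenase components were lower still, with *KGD2* at 90.4 ± 5.70 CPM per kb and *KGD1* at 37.4 ± 5.20 CPM per kb, although they work in 1 complex. *CIT3*, a mitochondrial citrate synthase isozyme, had 3.21 ± 0.545 CPM per kb.

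Footprints per kb kept *IDH2* (507 ± 55.8 CPM per kb) and *IDH1* (429 ± 60.3) at the top, now with overlapping wt libraries, and moved *ACO1* to the third place (279 ± 91.3). *FUM1* had 194 ± 10.5, *CIT1* 168 ± 16.5 and *MDH1* 166 ± 13.5 CPM per kb, and each of these overlapped its neighbour in this order. *KGD2* (123 ± 9.67) and *CIT2* (121 ± 12.4) overlapped as well. *KGD1* had 62.1 ± 4.49 and *CIT3* 1.28 ± 0.505 CPM per kb.

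**Figure D1:**
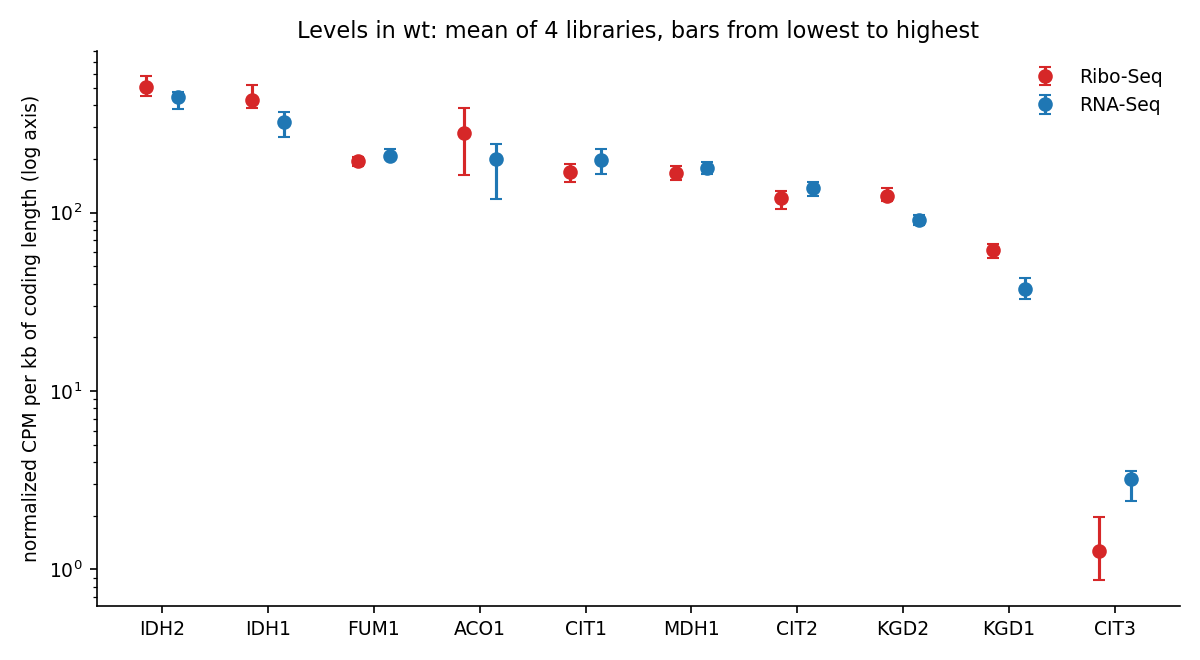
Levels of the 10 genes in wt, in normalized CPM per kb of coding sequence on a log axis, with Ribo-Seq in red and RNA-Seq in blue. Points are the mean of 4 wt libraries and bars run from the lowest to the highest library. *IDH2* stands highest in both assays and *CIT3* lowest, and *KGD1* is the member with the widest gap in favour of footprints.

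Ribosome occupancy (RO) is the log2 ratio of footprint to mRNA level in 1 lysate. *KGD1*, the 2-oxoglutarate decarboxylase component, had the highest wt RO of the 10 genes at 0.74 ± 0.16 (SD, n = 4), above 96.9% of tested genes. *ACO1* (0.47 ± 0.14), *KGD2*, the succinyltransferase component (0.45 ± 0.17), and *IDH1* (0.42 ± 0.14) came next, and *IDH2* had 0.19 ± 0.10. *MDH1* was at -0.09, *FUM1* at -0.11, *CIT2* at -0.19 and *CIT1* at -0.23. The wt median over all tested genes was -0.50, so all 9 tested members lay above it. *CIT3* was at -1.39, from at most 10 footprint reads per wt library, and its RO is imprecise for that reason.

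**Figure D2:**
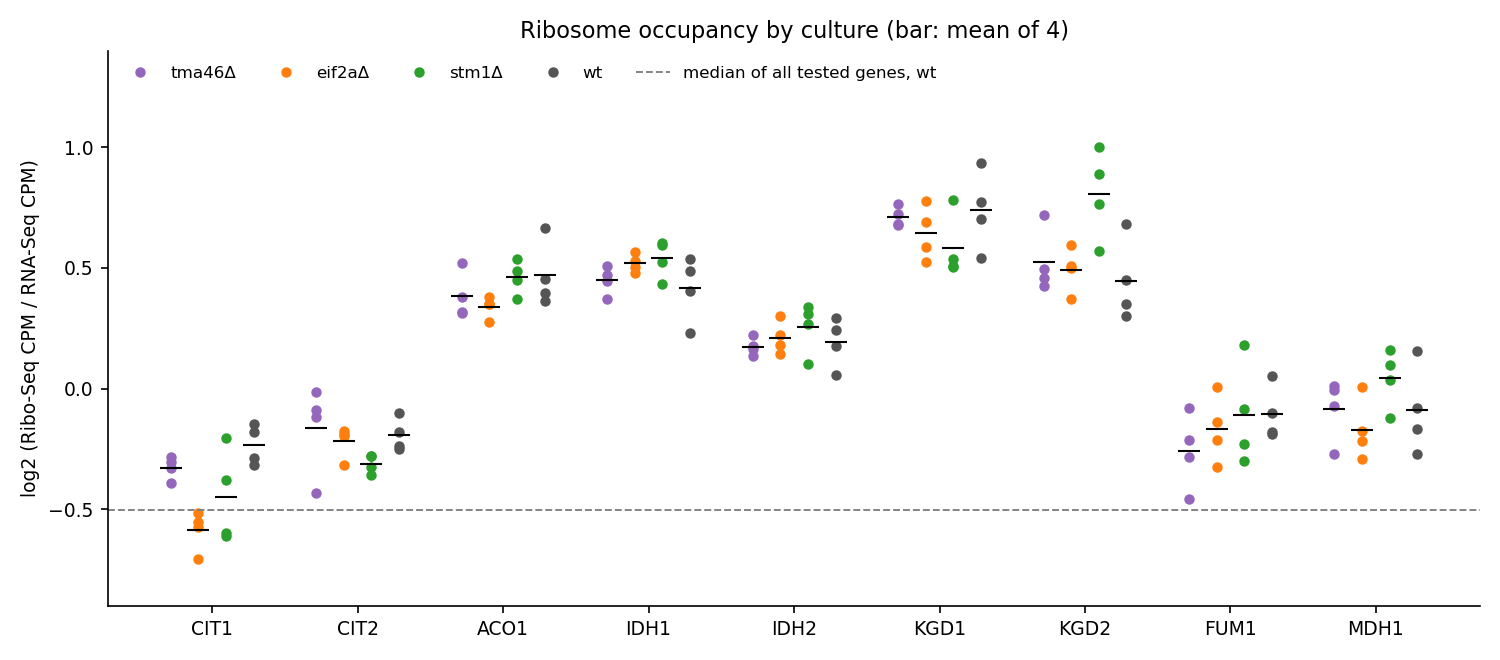
Ribosome occupancy (log2 of Ribo-Seq over RNA-Seq normalized CPM) of the 9 tested genes in *tma46Δ*, *eif2aΔ*, *stm1Δ* and wt. Points are lysates, bars are means, and the dashed line is the wt median of all 4625 tested genes. *CIT1* in *eif2aΔ* lies between -0.71 and -0.52, below the wt lysates at -0.32 to -0.15.

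The comparison of *eif2aΔ* with wt asks which mRNAs change in level or translation without eIF2A, and it held all the significant changes among the 10 genes. Footprints of *ACO1*, *CIT1* and *KGD1* were lower in *eif2aΔ*, at 0.617, 0.650 and 0.724 of the wt level, and *ACO1* mRNA was lower at 0.713 of it. In Ribo-Seq 3 of 9 tested members were called lower at a false discovery rate (FDR, Benjamini-Hochberg over all genes) under 0.05 by edgeR's quasi-likelihood test, and none higher, where 1.06% of all tested genes were called lower and 0.778% higher. In RNA-Seq 1 of 9 was called lower, and none higher, where 0.259% of all tested genes were called lower and 0.195% higher. The median log2 fold change of the members was -0.31 in Ribo-Seq, against 0.01 over all tested genes, and 9 of 9 members lay below 0, against 48.95% of all genes. In RNA-Seq the median was -0.24, against 0.00, with 7 of 9 members below 0, against 49.99% of all genes.

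*ACO1* encodes aconitase, which converts citrate to isocitrate. Its footprints stood at 443.1, 505.3, 403.1 and 431.6 CPM in *eif2aΔ* replicates 1 to 4, against 380.3, 651.6, 677.3 and 901.5 CPM in wt. Replicates 2 to 4 of wt lay above all *eif2aΔ* libraries and wt replicate 1, from batch 1, lay below them, so the groups overlapped. The fitted log2 fold change was -0.70 (SE 0.111, FDR 0.00589). Its mRNA had 365.9, 396.7, 309.6 and 338.2 CPM in *eif2aΔ*, against 277.9, 506.3, 515.1 and 567.9 CPM in wt, and the fitted change was -0.49 (SE 0.0981, FDR 0.0494). In batch 1 *tma46Δ* was low for *ACO1* too, with 355.9 CPM of footprints and 286.2 CPM of mRNA. Within batches 3 and 4, which hold both strains, *eif2aΔ* differed from wt by -0.61 and -0.84 (log2) in footprints and by -0.49 and -0.52 in mRNA. Leaving out wt replicate 4 (log2 fold change -0.62, FDR 0.147) or *eif2aΔ* replicate 2 (-0.62, FDR 0.150), which make up batch 4, ended the footprint call. In each of these fits the *eif2aΔ* footprint calls over all tested genes fell from 85 to 7. The mRNA call was held in 4 of 16 fits that left out 1 library and was lost without any of the wt or *tma46Δ* libraries, *eif2aΔ* replicates 1 to 3 or *stm1Δ* replicate 3, with FDR up to 0.320 and log2 fold changes of -0.53 to -0.46 over the 16 fits. Neither *ACO1* call was made in a model without the batch term.

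*CIT1* encodes the main mitochondrial citrate synthase, which joins acetyl-CoA to oxaloacetate. Its footprints were 150.2, 148.8, 174.1 and 156.1 CPM in *eif2aΔ*, against 213.0, 267.7, 232.9 and 252.6 CPM in wt. All *eif2aΔ* libraries lay below all wt libraries. The log2 fold change was -0.62 (SE 0.101, FDR 0.00684), and the within-batch differences were -0.63 and -0.76. *CIT1* mRNA had 245.3, 221.3, 249.2 and 229.3 CPM in *eif2aΔ*, against 235.6, 326.9, 290.7 and 286.2 CPM in wt, and its change of -0.24 (SE 0.0972, FDR 0.302) was not significant. The RO of *CIT1* was -0.71, -0.57, -0.52 and -0.55 in *eif2aΔ*, against -0.15, -0.29, -0.32 and -0.18 in wt, again without overlap. The interaction test gave -0.38 for this difference in RO (SE 0.142, unadjusted p = 0.0138, FDR 1.00), which did not pass over all genes. That test had no term for lysate, so it did not use the pairing of the 2 libraries of a lysate. The footprint call was lost without wt replicate 4 (log2 fold change -0.54, FDR 0.147) or *eif2aΔ* replicate 2 (-0.54, FDR 0.150) and held in the other 14 fits.

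*KGD1* footprints were 153.5, 147.6, 117.2 and 175.5 CPM in *eif2aΔ*, against 169.7, 201.8, 190.5 and 193.8 CPM in wt. Only *eif2aΔ* replicate 4 lay above the lowest wt library. The log2 fold change was -0.47 (SE 0.108, FDR 0.0440), with within-batch differences of -0.31 and -0.39. *KGD1* mRNA had 106.7, 91.5, 78.1 and 102.5 CPM in *eif2aΔ* and 99.4, 123.9, 130.9 and 101.5 CPM in wt, with a change of -0.32 (SE 0.112, FDR 0.222). The footprint call was held in 5 of 16 fits that left out a library and was lost without any wt or *tma46Δ* library, *eif2aΔ* replicate 2 or 3 or *stm1Δ* replicate 3, with FDR up to 0.261 and log2 fold changes of -0.55 to -0.38, and was not made in a model without the batch term.

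**Figure D3:**
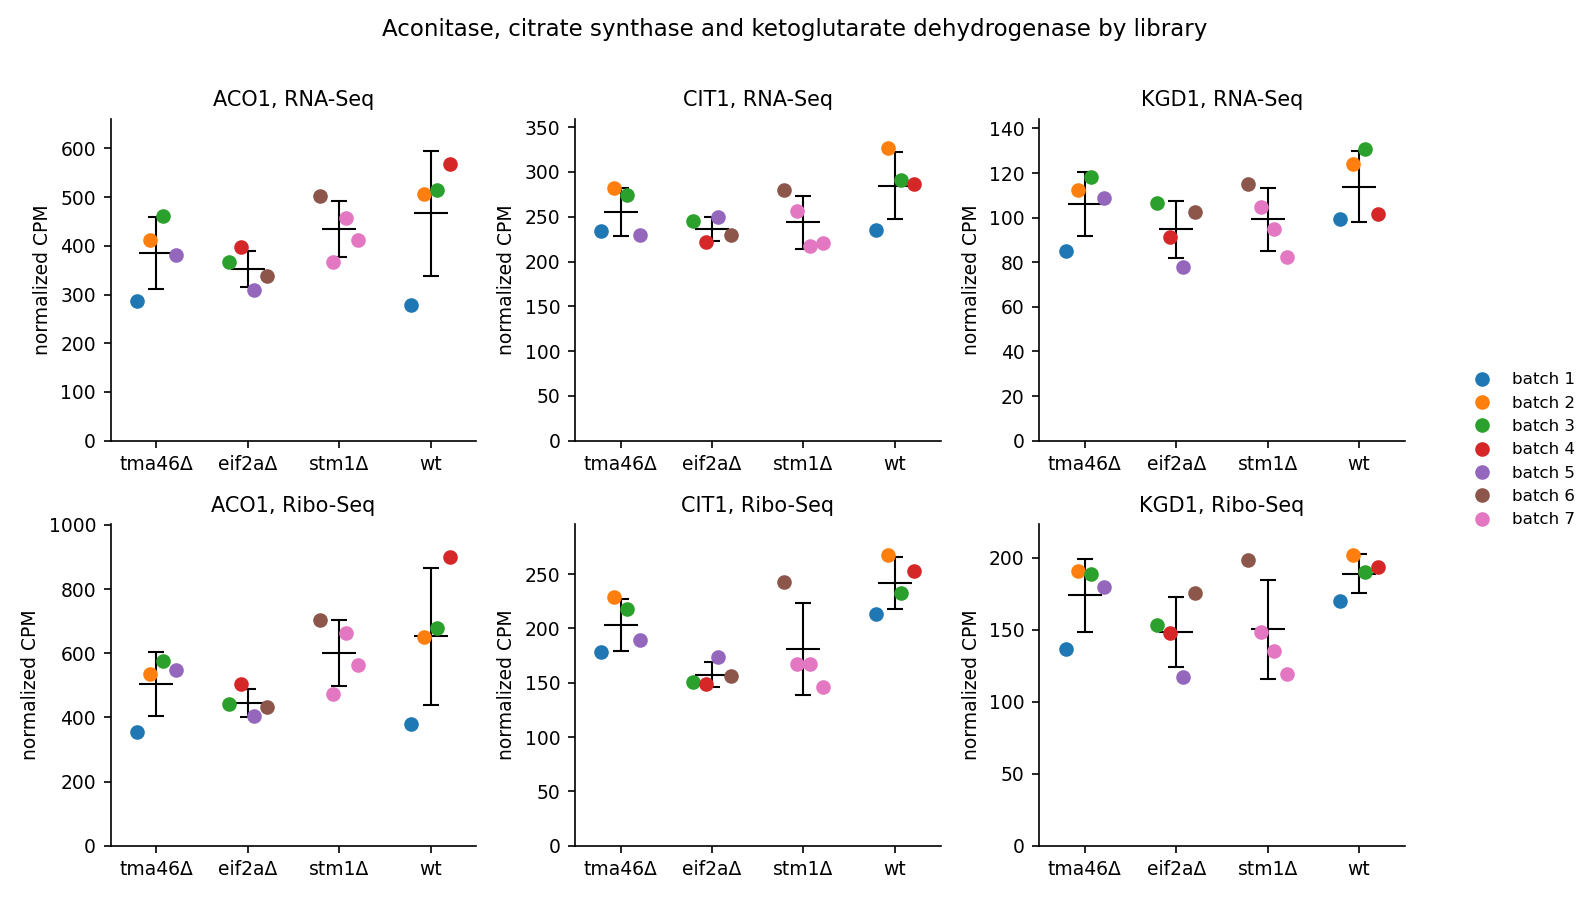
Normalized CPM of *ACO1*, *CIT1* and *KGD1* in RNA-Seq and Ribo-Seq for *tma46Δ*, *eif2aΔ*, *stm1Δ* and wt. Points are libraries coloured by batch, and bars give the mean ± SD of 4 libraries. *CIT1* footprints in *eif2aΔ* (148.8 to 174.1 CPM) lie below those in wt (213.0 to 267.7 CPM), whereas *ACO1* spreads widely in wt and is low in batch 1.

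The other 6 tested members did not pass in *eif2aΔ*. *KGD2* footprints were 150.2, 122.6, 139.2 and 170.6 CPM in *eif2aΔ*, against 162.3, 165.2, 167.3 and 191.5 CPM in wt, with a log2 fold change of -0.39 (SE 0.105, FDR 0.0762). Its mRNA, at 105.6, 94.8, 98.6 and 113.0 CPM in *eif2aΔ*, lay below all wt libraries (118.8, 134.0, 131.3 and 119.3 CPM), with a change of -0.37 (SE 0.118, FDR 0.177). *CIT2* lay below all wt libraries in both assays. Its footprints were 110.4, 141.3, 139.2 and 126.4 CPM in *eif2aΔ*, against 144.7, 163.8, 181.9 and 179.2 CPM in wt (log2 fold change -0.31, SE 0.170, FDR 0.430), and its mRNA had a log2 fold change of -0.31 (SE 0.126, FDR 0.296). Such a separation, with all 4 *eif2aΔ* libraries below all wt libraries, was seen for 2 of 9 members in each assay, against 3.52% of all tested genes in mRNA and 5.45% in footprints. In RO it was seen for *CIT1* alone of the 9 members, against 2.25% of genes.

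*IDH1*, *IDH2*, *FUM1* and *MDH1* had fitted changes between -0.18 and 0.04 in *eif2aΔ* mRNA and between -0.17 and -0.06 in footprints. The *eif2aΔ* libraries differed among themselves for the IDH subunits. *IDH2* mRNA was 342.0 and 280.5 CPM in replicates 1 and 4 and 509.8 and 516.8 CPM in replicates 2 and 3, with wt at 420.7 to 527.4 CPM. *FUM1*, whose single gene supplies both the mitochondrial and the cytosolic fumarase, had 220.0 to 283.8 CPM of footprints in *eif2aΔ* and 266.4 to 301.9 CPM in wt. *MDH1* had 140.7 to 186.8 CPM in *eif2aΔ* and 152.5 to 182.9 CPM in wt.

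No member was called in RO in *eif2aΔ* (edgeR, 0.0432% of all tested genes called), 1 of 9 had an unadjusted p under 0.05 (3.31% of all tested genes), and DESeq2 called 0. By the same unadjusted measure, 5 of 9 members passed in mRNA, against 13.7% of all genes, and 4 of 9 in footprints, against 14.7%.

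**Figure D4:**
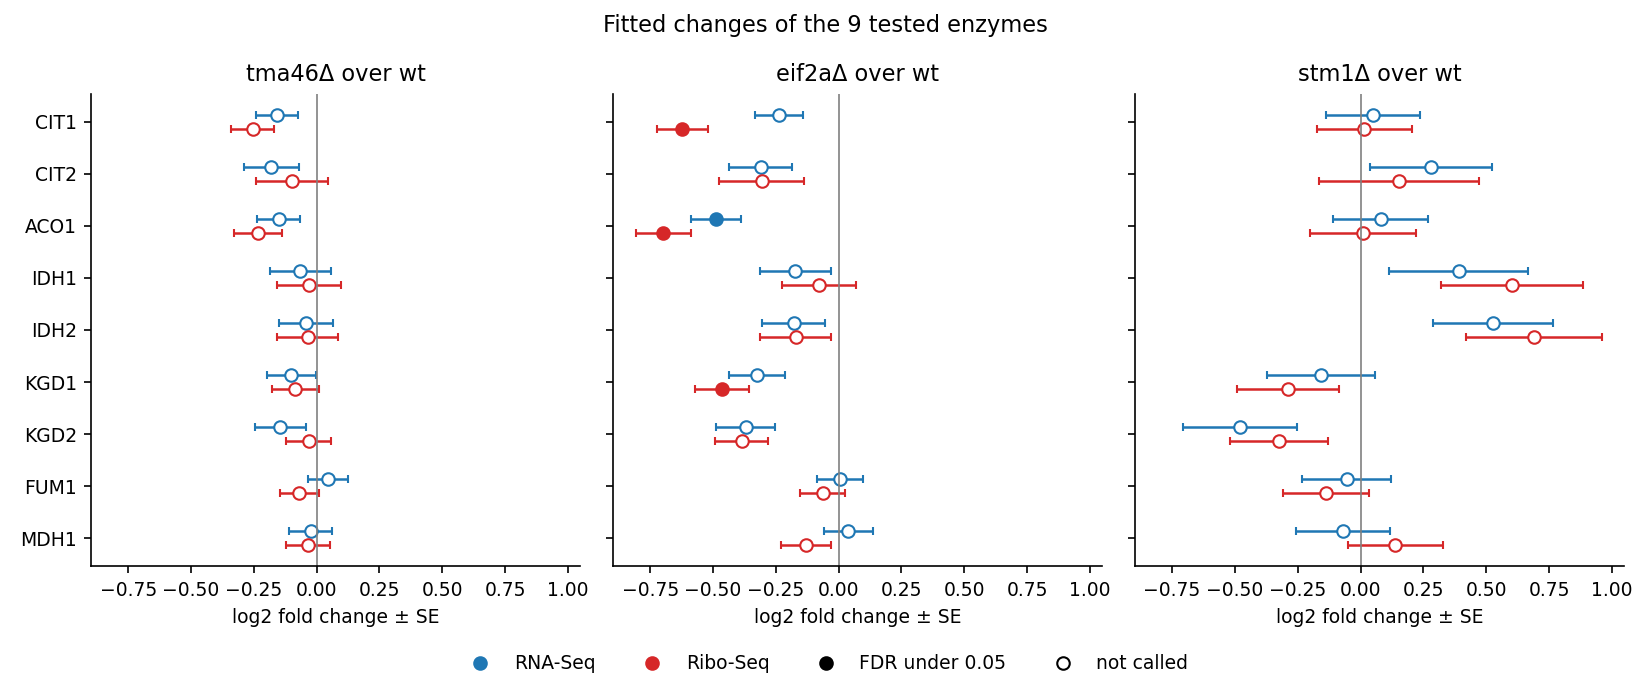
Fitted log2 fold change of each tested member in *tma46Δ*, *eif2aΔ* and *stm1Δ* against wt. Bars are ± SE and filled points have an FDR under 0.05. The 4 filled points are all in *eif2aΔ*, and error bars are widest in *stm1Δ*.

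Other genes of the pathway were read in the same fits. The list for the rest of the cycle includes *LPD1* and *KGD4* of 2-oxoglutarate dehydrogenase, the succinyl-CoA ligase subunits *LSC1* and *LSC2*, and the succinate dehydrogenase subunits *SDH1* to *SDH4*. Of its 9 genes, all tested, 3 were called lower in *eif2aΔ* footprints and none higher. Over all tested genes 1.06% were called lower and 0.778% higher. In this list 9 of 9 lay below 0, against 48.95% of all genes, with a median of -0.43, against 0.005. All 3 encode succinate dehydrogenase, the enzyme that feeds electrons from succinate into the respiratory chain. *SDH1*, the flavoprotein subunit, had 25.3, 17.5, 12.7 and 25.5 CPM of footprints in *eif2aΔ*, against 15.6, 32.9, 38.4 and 33.8 CPM in wt, with a log2 fold change of -0.86 (SE 0.162, FDR 0.0165). The lowest wt library was replicate 1, as for *ACO1*, and here it lay inside the *eif2aΔ* range. The membrane subunits *SDH3* (-0.72, SE 0.148, FDR 0.0231) and *SDH4* (-0.80, SE 0.163, FDR 0.0231) were lower as well, and the iron-sulfur subunit *SDH2* had -0.80 with FDR 0.0887. DESeq2 and a model without the batch term did not call these 3 genes, and each call was lost without wt replicate 2 or 4, *tma46Δ* replicate 2 or 4 or *eif2aΔ* replicate 2 or 3. *SDH3* and *SDH4* also lost it without wt replicate 1 or *tma46Δ* replicate 1, and *SDH4* without wt replicate 3, with FDR up to 0.150 for *SDH1*, 0.204 for *SDH3* and 0.180 for *SDH4*. In RNA-Seq the rest of the cycle had 0 of 9 called by edgeR, against 0.259% of all tested genes called lower and 0.195% higher. DESeq2 called 1 (*SDH3*, among 51 of the 4625 genes). At an unadjusted p under 0.05 in edgeR's test there were 6 of 9, against 13.7% of all genes. The median was -0.43, against 0.00 over all genes.

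Of the glyoxylate cycle and its isozymes 4 of 9 genes were tested, and *MDH2* was called lower in both assays. Over all tested genes 0.259% were called lower in mRNA and 1.06% in footprints. *MDH2* encodes cytosolic malate dehydrogenase, which serves gluconeogenesis and the glyoxylate cycle. Its mRNA was 118.8, 113.3, 111.9 and 126.8 CPM in *eif2aΔ*, against 194.2, 191.2, 187.1 and 149.2 CPM in wt, and its footprints were 109.5, 107.6, 130.9 and 117.1 CPM in *eif2aΔ*, against 149.4, 180.7, 171.5 and 164.3 CPM in wt. The groups did not overlap in either assay. The log2 fold changes were -0.59 in mRNA (SE 0.0939, FDR 0.0142) and -0.55 in footprints (SE 0.0934, FDR 0.00875), whereas mitochondrial *MDH1* had 0.04 and -0.13. The mRNA call was lost without wt replicate 1, 2 or 3, *tma46Δ* replicate 1 or 2 or *eif2aΔ* replicate 1 (FDR up to 0.0739), and the footprint call without wt replicate 3 or 4 or *eif2aΔ* replicate 2 (FDR up to 0.150). Among genes that feed the cycle 8 of 9 were tested and *PYC2*, a pyruvate carboxylase that makes oxaloacetate, was called lower in footprints at -0.53 (SE 0.0999, FDR 0.0168). Its footprints were 170.6, 178.2, 147.0 and 186.8 CPM in *eif2aΔ*, against 233.9, 261.6, 220.6 and 253.5 CPM in wt, without overlap. That call was lost without any wt library, *tma46Δ* replicate 2 or 4 or *eif2aΔ* replicate 2 or 3 (FDR up to 0.150). None of 6 tested mitochondrial carriers, 7 tested regulators or 2 tested retrograde targets outside the cycle was called in *eif2aΔ* by edgeR or DESeq2. In mRNA 1 of the 7 regulators had an unadjusted p under 0.05 in edgeR's test, against 13.7% of all genes. This was *RTG2*, which was higher in *eif2aΔ* (log2 fold change 0.21, SE 0.0932, unadjusted p = 0.0441). Among the regulators *HAP4*, the activating subunit of the CCAAT-binding complex, had 43.6, 25.7, 22.5 and 37.0 CPM of mRNA in *eif2aΔ*, against 24.9, 30.1, 38.3 and 31.9 CPM in wt, with overlapping groups. Its fitted log2 fold change in *eif2aΔ* was -0.13 in mRNA (SE 0.165, FDR 0.775) and -0.39 in footprints (SE 0.202, FDR 0.394).

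The comparison of *tma46Δ* with wt asks the same of Tma46. No member was called in RNA-Seq, Ribo-Seq or RO by edgeR (0.0216, 0.0216 and 0.0% of all tested genes called), and DESeq2 called 0 in each. At an unadjusted p under 0.05 there were 0, 2 and 0 of 9, against 1.62, 3.68 and 1.3% of all tested genes. The 2 were *CIT1* footprints, at 178.1, 228.6, 217.7 and 189.0 CPM in *tma46Δ* against 213.0, 267.7, 232.9 and 252.6 CPM in wt, and *ACO1* footprints, at 355.9, 535.2, 575.5 and 547.5 CPM in *tma46Δ* against 380.3, 651.6, 677.3 and 901.5 CPM in wt. Both pairs of groups overlapped. In edgeR's fit the log2 fold change was -0.26 for *CIT1* footprints (SE 0.0855, unadjusted p = 0.00916, FDR 1.00) and -0.23 for *ACO1* footprints (SE 0.0968, unadjusted p = 0.0295, FDR 1.00). In the 3 batches shared with wt, *CIT1* footprints differed by -0.26, -0.23 and -0.10, and *ACO1* footprints by -0.10, -0.28 and -0.24. The median over members was -0.10 in mRNA and -0.07 in footprints, against -0.01 and 0.00 over all genes, and 8 of 9 and 9 of 9 members lay below 0, against 55.07% of all genes in mRNA and 49.99% in footprints. No member had all *tma46Δ* libraries below all wt libraries, against 0.951% of genes in mRNA, 1.62% in footprints and 0.735% in RO. These sit beside the *eif2aΔ* values but share the wt libraries with them.

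Set against each other in the batches that hold both, *eif2aΔ* differed from *tma46Δ* in *ACO1* footprints by -0.38 in batch 3 and -0.44 in batch 5, for *CIT1* by -0.54 and -0.12, and for *KGD1* by -0.30 and -0.62. These differences come from single libraries and have no test.

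The comparison of *stm1Δ* with wt asks the same of Stm1. No member was called by edgeR in RNA-Seq, Ribo-Seq or RO (0.0649, 0.411 and 0.0% of all tested genes called), and DESeq2 called 0 in each. At an unadjusted p under 0.05 there were 1, 2 and 0 of 9, against 21.8, 15.6 and 5.51% of all tested genes, so the members' shares were not above those of all genes in mRNA and RO and close to it in footprints. The largest positive fitted values were those of *IDH2*. Its mRNA was 457.8, 489.5, 603.7 and 558.7 CPM in *stm1Δ*, against 420.7, 526.7, 495.9 and 527.4 CPM in wt, with a log2 fold change of 0.53 (SE 0.240, unadjusted p = 0.0458, FDR 0.222). Its footprints were 577.8, 525.6, 746.8 and 672.7 CPM in *stm1Δ*, against 497.6, 547.4, 560.3 and 646.6 CPM in wt, with a change of 0.69 (SE 0.270, unadjusted p = 0.0218, FDR 0.237). *IDH1* footprints had a change of 0.60 (SE 0.282, unadjusted p = 0.0492, FDR 0.318). The groups overlapped for each. Their means lay closer than the fitted values, at 527.4 ± 66.1 CPM in *stm1Δ* and 492.7 ± 50.2 CPM in wt for *IDH2* mRNA and 630.7 ± 98.5 CPM in *stm1Δ* and 563.0 ± 61.9 CPM in wt for its footprints (SD, n = 4 each). The fitted values run through *eif2aΔ* replicate 4, the library of batch 6 in which both IDH subunits were lowest of all libraries. In batch 6, the only one *stm1Δ* shares with another strain, *stm1Δ* was above *eif2aΔ* by 0.86 for *IDH2* footprints, 0.68 for *IDH1*, 0.71 for *ACO1* and 0.64 for *CIT1*, from 1 library each.

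Negative fitted values in *stm1Δ* included those of *KGD2*, *KGD1* and *FUM1*. *KGD2* mRNA was 104.8, 108.6, 79.0 and 80.8 CPM in *stm1Δ*, against 118.8, 134.0, 131.3 and 119.3 CPM in wt (log2 fold change -0.48, SE 0.227, FDR 0.236), whereas its footprints, at 178.0, 161.4, 146.4 and 161.9 CPM, overlapped the 162.3 to 191.5 CPM of wt. *KGD1* footprints were 198.2, 148.6, 135.0 and 119.2 CPM in *stm1Δ*, against 169.7, 201.8, 190.5 and 193.8 CPM in wt, with overlap and a fitted change of -0.29 (SE 0.203, FDR 0.509), and its mRNA had a change of -0.16 (SE 0.215, FDR 0.697). *FUM1* mRNA was 244.8, 289.0, 253.0 and 233.7 CPM in *stm1Δ*, against 302.1, 331.8, 298.6 and 291.7 CPM in wt, without overlap, yet with batch in the model its change was -0.05 (SE 0.177). *FUM1* footprints, at 208.9, 234.6, 238.9 and 264.9 CPM in *stm1Δ* against 266.4, 290.8, 278.3 and 301.9 CPM in wt, did not overlap either and had a fitted change of -0.14. A full separation below wt was found for 2 of 9 members in mRNA, against 8.89% of all genes, and for 1 of 9 in footprints, against 7.31%. In RO *CIT2* alone lay below wt, at -0.33, -0.36, -0.28 and -0.28 in *stm1Δ* and -0.24, -0.25, -0.18 and -0.10 in wt, against 2.83% of genes. Of the 36 tested genes of the further pathway lists edgeR called none in *tma46Δ* or *stm1Δ*. At an unadjusted p under 0.05 in edgeR's test there were 1, 2 and 0 in *tma46Δ* mRNA, footprints and RO. Over all tested genes the shares were 1.62, 3.68 and 1.3%. The 1 was *HAP4* mRNA (log2 fold change -0.33, SE 0.149, unadjusted p = 0.0463). In *stm1Δ* there were 6, 6 and 0, where 21.8, 15.6 and 5.51% of all tested genes passed. The 6 of 36 were thus near or below the share of all genes. DESeq2 called 1 gene, *MAE1* in *stm1Δ* footprints, among 35 of the 4625 genes. Among the larger fitted values without a call in *stm1Δ* was -1.05 for *SDH1* footprints (SE 0.300, FDR 0.131). Footprints of *PDH1*, a methylcitrate pathway enzyme, had a fitted value of 1.08 (SE 0.583, FDR 0.375) that ran against the libraries, at 13.4, 6.74, 9.51 and 5.42 CPM in *stm1Δ* and 11.2, 12.01, 6.02 and 15.5 CPM in wt. *MAE1*, the mitochondrial malic enzyme, had -0.90 in footprints (FDR 0.131), the oxaloacetate carrier *OAC1* had -0.96 (FDR 0.318) and *HAP4* had -0.59 (FDR 0.430).

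*CIT3* was at the edge of detection and was not tested in the main fits. It had 15 to 34 mRNA reads per library in *tma46Δ*, 16 to 18 in *eif2aΔ*, 21 to 28 in *stm1Δ* and 19 to 31 in wt. Its footprints were 3 to 5 reads in *tma46Δ*, 1 to 6 in *eif2aΔ*, 3 to 8 in *stm1Δ* and 4 to 10 in wt. In a fit without the filter *CIT3* was called in no comparison. Its lowest FDR there was 0.83, for *eif2aΔ* footprints (log2 fold change -0.53). No difference was detectable at this depth.

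Across the 16 libraries of an assay the 2 IDH subunits varied together more closely than any other pair of members. Pearson's r between log2 levels of *IDH1* and *IDH2* was 0.955 in mRNA and 0.950 in footprints, and Spearman's rho was 0.926 and 0.874. The permutation p was 1e-05 for each r, the smallest that 100000 permutations can give, and 0.00036 after adjustment for the 72 pairs computed. For rho it was 1e-05 in mRNA and 2e-05 in footprints, 0.00072 after adjustment. Libraries of 1 strain or batch are not independent of each other, which limits these p-values. Without the 2 libraries farthest from the median r was 0.834 and 0.899, and after centring each batch it was 0.974 and 0.964. The *IDH2* to *IDH1* ratio per kb ran from 1.29 to 1.60 in mRNA (median 1.42) and from 1.04 to 1.34 in footprints (median 1.18). The lowest mRNA and footprint levels of both subunits were in *eif2aΔ* replicates 1 and 4.

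**Figure D5:**
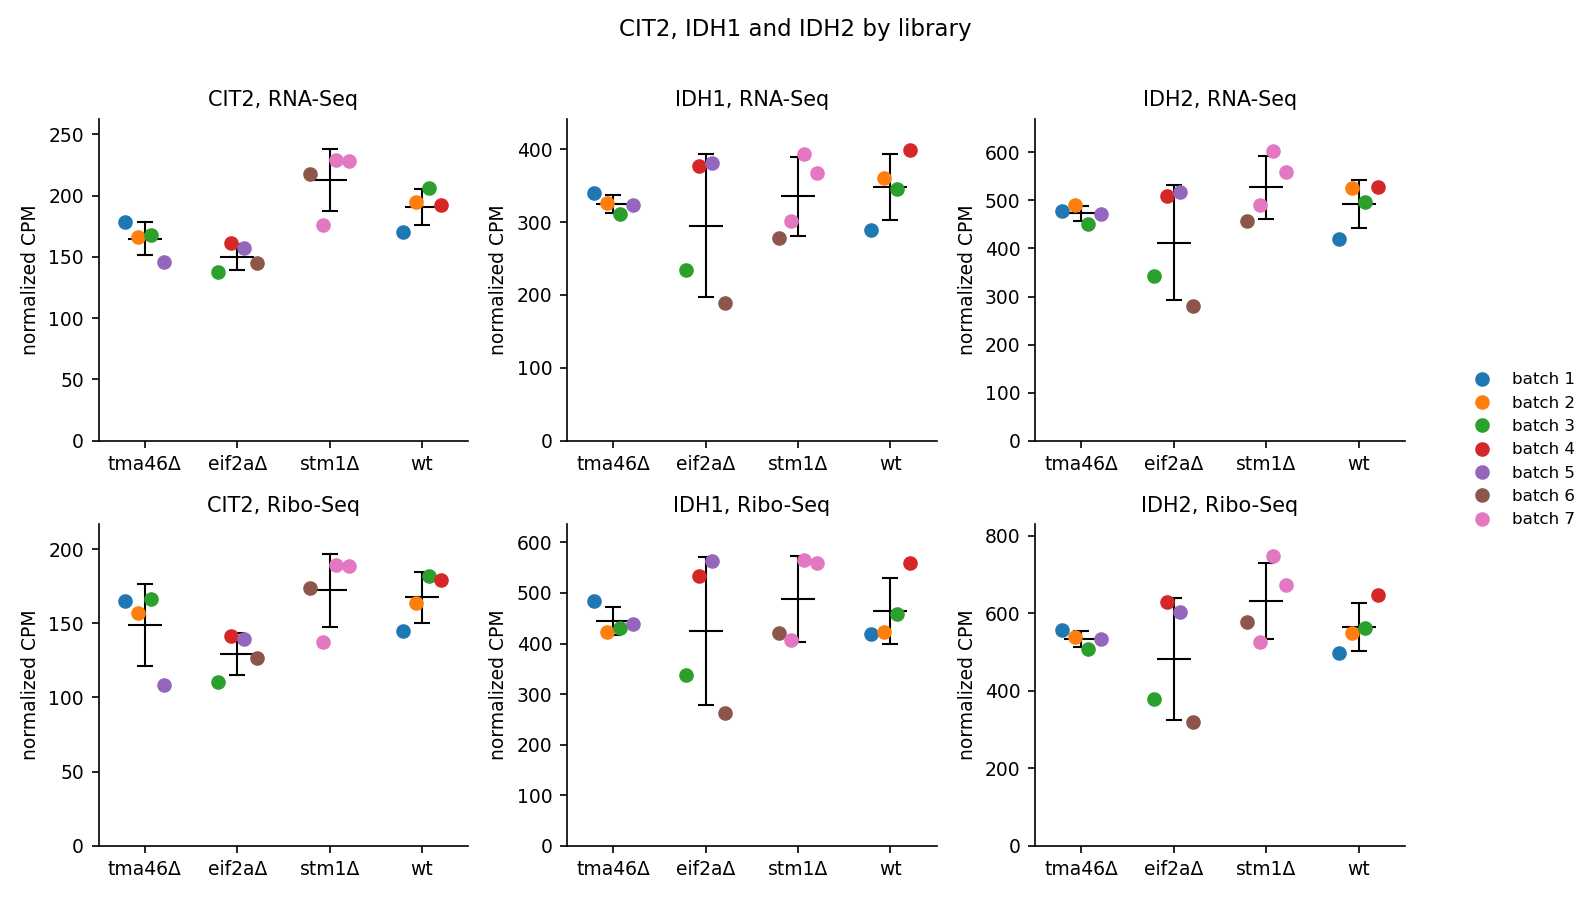
Normalized CPM of *CIT2*, *IDH1* and *IDH2* in RNA-Seq and Ribo-Seq for *tma46Δ*, *eif2aΔ*, *stm1Δ* and wt. Points are libraries coloured by batch, with the mean ± SD of 4 libraries. *IDH1* and *IDH2* split the *eif2aΔ* libraries into a lower pair (replicates 1 and 4) and a higher pair (replicates 2 and 3) in both assays.

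Of the 36 pairs, r had an adjusted permutation p under 0.05 for 8 in mRNA and 5 in footprints, IDH included, and values of pairs are given with the permutation p of r and of rho in that order. Between *CIT2* and *IDH2* mRNA r was 0.666 and rho 0.612 (permutation p = 0.00256 and 0.0138, adjusted 0.0235 and 0.0903), with r of 0.557 without the 2 farthest libraries and 0.926 after centring on batch. Their footprints had r of 0.658 and rho of 0.685 (permutation p = 0.00545 and 0.00445, adjusted 0.0330 and 0.0434), with r of 0.672 without those libraries and 0.876 after centring. *CIT1* and *KGD1* footprints had r of 0.782 and rho of 0.821 (permutation p = 0.00049 and 0.00015, adjusted 0.0118 and 0.0036), with r of 0.729 without the 2 farthest libraries and 0.734 after centring. *KGD1* and *KGD2*, whose products form 1 enzyme complex, had r of 0.715 and rho of 0.676 in mRNA (permutation p = 0.00177 and 0.00516, adjusted 0.0215 and 0.0434), with r of 0.701 and 0.803 under the same changes. In footprints this pair had r of 0.677 and rho of 0.774 (permutation p = 0.00357 and 0.00089, adjusted 0.0257 and 0.0160), with r of 0.749 and 0.739. *FUM1* and *MDH1* had r of 0.726 and rho of 0.741 in mRNA (permutation p = 0.00175 and 0.00158, adjusted 0.0215 and 0.0228), with r of 0.637 and 0.768 under those changes, whereas r was -0.086 in footprints (permutation p = 0.750). *CIT1* mRNA had r of 0.700 with *KGD1* (rho 0.691, permutation p = 0.00286 and 0.00387, adjusted 0.0235 and 0.0434) and 0.685 with *KGD2* (rho 0.671, permutation p = 0.00294 and 0.00542, adjusted 0.0235 and 0.0434), which after centring on batch were 0.466 and 0.585, and without the 2 farthest libraries 0.563 and 0.551. *KGD2* mRNA had r of 0.736 with *MDH1* (rho 0.447, permutation p = 0.00179 and 0.0833, adjusted 0.0215 and 0.206) and 0.662 with *FUM1* (rho 0.494, permutation p = 0.0055 and 0.0533, adjusted 0.0330 and 0.147), and without the 2 farthest libraries r was 0.258 and 0.365, so these relations rested on those libraries. *CIT1* and *KGD2* footprints had r of 0.624 (rho 0.600, permutation p = 0.00893 and 0.0164, adjusted 0.0495 and 0.0985), with r of 0.593 without the 2 farthest libraries and 0.724 after centring. Over all 36 pairs r ran from -0.607 to 0.955 in RNA-Seq (median 0.258) and from -0.420 to 0.950 in Ribo-Seq (median 0.294). Libraries of 1 strain or batch are not independent of each other in these values.

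*ACO1* varied most from library to library, with an SD of log2 level of 0.309 in mRNA and 0.365 in footprints, above 92.9 and 93.5% of tested genes, and *MDH1* least, at 0.127 and 0.123, above 24.4 and 12.4% of them. The genes outside the 10 whose profile over the 16 libraries was most like the mean of the 9 members were, in RNA-Seq, *ALD4*, a mitochondrial aldehyde dehydrogenase (r = 0.906), *ELO1*, a fatty acid elongase (0.851), *HXK1*, a hexokinase (0.847), *SSE2* (0.845) and *NTH2* (0.817). In Ribo-Seq they were *SSC1*, the mitochondrial Hsp70 (0.929), *ALD4* (0.902), *ELO1* (0.898), *MCR1* (0.889) and *BDH2* (0.855). The members' own r with that mean ran from 0.220 (*MDH1*) to 0.814 (*CIT1*) in RNA-Seq. In Ribo-Seq it ran from 0.338 (*FUM1*) to 0.833 (*ACO1*). The mean is therefore not a profile that all members share, and the listed genes lay closer to it than any member.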

How the data were processed

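The 10 genes and the lists of other pathway genes were chosen with earlier results of these data known. The genes named were all members and, from the lists, each gene called in any comparison and up to 3 more per list by size of change. A single list gene is counted but not reported here by name. The authors deposited whole-number read counts per gene for each library. Their submitters' processing notes name cutadapt 2.10, Bowtie2 1.2.3 and STAR 2.7.9a with build R64. Per the methods, rRNA reads were removed and Ribo-Seq duplicates were collapsed. The filter asked for 10 CPM or more in no fewer than 4 libraries of each assay. Counts were TMM-scaled and fitted with edgeR 4.0.16 (R 4.3.3) quasi-likelihood models with strain and batch terms over all 4 strains of an assay. RO was the strain by assay interaction over 32 libraries, without a term for lysate, so the 2 libraries of a lysate were not paired. With a lysate term, edgeR called 4 genes in *eif2aΔ* RO, against 2 without it, and no member in any strain. The median SE in *eif2aΔ* RO was then 0.164, against 0.182. Replicate numbers 1 to 3 mark a shared batch for wt and *tma46Δ* only, where deviations of same-batch libraries had r of 0.526 to 0.663 for mRNA and 0.319 to 0.480 for footprints. Between libraries of different batches r ran from -0.653 to 0.623 for mRNA and from -0.330 to 0.091 for footprints. The mRNA ranges thus overlapped. Alternatives were no batch term, ComBat-seq adjustment (sva 3.50.0, the study's own correction), a replicate block, the lysate term for RO, only the 2 strains compared, DESeq2 1.42.0, other filters and scaling, and leaving out each library. The fitting code was tested on simulated data. Sequences come from the R64 genome with its RefSeq annotation.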

Additional observations from a re-analysis of the deposited data

Results flagged for a closer look

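Of 108 groups of 4 values examined (9 tested genes, 4 strains and 3 measures), 3 held 1 library far from the others. Chance alone gives about 1 in 20 such groups. *CIT2* footprints in *tma46Δ* were 108.1 CPM in replicate 4 and 156.9 to 166.5 CPM in the other 3 libraries, a gap of 0.835 of the group's range. The RO of *CIT2* in *eif2aΔ* was -0.32 in replicate 1 and -0.19 to -0.17 in the others, a gap of 0.855 of the range. The RO of *KGD1* in *stm1Δ* was 0.78 in replicate 1, the lysate on which the comparison of *stm1Δ* with wt rests, and 0.50 to 0.54 in the others, a gap of 0.879 of the range. These members were not called in those strains.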

How the results depend on the processing

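Main counts of members called were 1 in *eif2aΔ* RNA-Seq, 3 in *eif2aΔ* Ribo-Seq and 0 elsewhere, and no called value changed sign. Without the batch term the counts were 0 in *eif2aΔ* mRNA, 1 in *eif2aΔ* footprints and 2 in *stm1Δ* mRNA, and with a replicate block in place of batch they were also 0, 1 and 2. ComBat-seq adjustment gave 5 and 5 in *eif2aΔ*, 1 in *eif2aΔ* RO (*CIT1*, -0.42), and 4 and 5 in *stm1Δ* RNA-Seq and Ribo-Seq. With only the 2 strains compared they were 2 and 6 in *eif2aΔ*, and 2 in *tma46Δ* Ribo-Seq (*ACO1* and *CIT1*). A minimum mean of 50 CPM left 0 in *eif2aΔ* RNA-Seq. Over fits that left out 1 library the counts ran from 0 to 2 in *eif2aΔ* mRNA and 0 to 4 in *eif2aΔ* footprints and stayed at 0 for the others. Over all tested genes, *eif2aΔ* calls in these fits ran from 4 to 172 in mRNA and from 7 to 250 in footprints. The lowest came without wt replicate 4 or *eif2aΔ* replicate 2, and the highest without *stm1Δ* replicate 2. Losses in the fits with few calls were therefore not particular to the members or list genes. *CIT1* footprints in *eif2aΔ* were called in 10 of 10 other alternatives, *ACO1* footprints in 8, *KGD1* footprints in 8 and *ACO1* mRNA in 7. Over all 4625 genes, calls in *eif2aΔ* were 21 for mRNA and 85 for footprints, 15 and 74 without the batch term, 959 and 821 after ComBat-seq, 205 and 242 with 2 strains, 53 and 108 without a filter, 51 and 58 with DESeq2, and 20 and 42 with the block. In *stm1Δ* they were 3 and 19, and 447 and 220 without the batch term, 3151 and 2561 after ComBat-seq, 215 and 35 with DESeq2, and 251 and 157 with the block, so the 4 and 5 of 9 members after ComBat-seq are below and near the share of all genes. In *tma46Δ* footprints they were 1, and 76 with 2 strains. In RO ComBat-seq called 62 genes in *eif2aΔ* and 2137 in *stm1Δ*, against 2 and 0. The replicate block pairs libraries that share only a number in *eif2aΔ* and *stm1Δ*. The causes of these differences were not tested. The *stm1Δ* comparison cannot be estimated without its replicate 1, and *CIT3* stayed below any detectable difference at this depth.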
